A study of Homo sapiens with 45 samples.

Results

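Transcripts of the proteasome were followed in neuroblastoma cells treated with palbociclib (PB), which blocks the cyclin-dependent kinases CDK4 and CDK6. The members were all genes whose symbol is PSM followed by a letter from A to G and a number. Of 48 such human symbols, 45 were among the 29159 genes of the count tables, and PSMA8, PSMB8 and PSMB9 were not analysed here. They comprise 14 standard subunits of the core particle (7 alpha and 7 beta), 2 beta subunits restricted to certain cells or induced by interferon (PSMB10 and PSMB11), 17 subunits of the regulatory particle (6 ATPases and 11 others), 4 activators with 1 inhibitor, and 7 assembly chaperones. The rule uses symbols and no measured value.

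The proteasome degrades proteins that carry ubiquitin chains. Its core particle is a barrel of stacked rings, with alpha subunits forming the gates and 3 kinds of beta subunits, PSMB5, PSMB6 and PSMB7, cutting the substrate inside. The regulatory particle caps the barrel, binds ubiquitin, removes it and unfolds the substrate with a ring of ATPases, while other activators can open the gate without ubiquitin, and dedicated chaperones assist assembly. Dividing and differentiating neuronal cells both depend on it, and in many cells the subunit genes are induced together by the transcription factor NFE2L1 when proteasome activity falls.

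Bulk RNA-seq was made from 3 established neuroblastoma lines, SK-N-BE(2)C (MYCN amplified, with 1p loss), IMR-32 (1p loss, with MYCN and MEIS1 amplified) and SH-SY5Y (ALK mutant). Values for the lines follow this order wherever they are given in turn. Each line was sampled as control, after 24 h of 1 μM PB and after longer PB, 7 d in SK-N-BE(2)C and 5 d in the others, with 5 libraries a group and 45 in all. The study describes the replicates as separate passages plated in independent experiments, and the control cells were collected with the 24 h cells, so time in culture and treatment cannot be told apart at the longer time. In such bulk RNA a lower level per cell and a smaller share of cells that express a gene cannot be told apart.

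Libraries held 13459219 to 25441812 counts, and all levels below are CPM, a gene's counts scaled by its library's total. In SK-N-BE(2)C, replicates 3, 4 and 5 of the control and of the 24 h group lay closer to each other than to the others, and so did replicates 4 and 5 at 7 d, although no pair agreed within sampling noise. Replicate 5 of IMR-32 had the highest summed mesenchymal markers and proliferation genes in each of its groups and stood apart among the controls, where its summed regulatory subunits reached 3049 CPM against 2229 to 2466 in the other 4, the mesenchymal markers 1029.6 CPM against 442 to 492 and the proliferation genes 5019 against 3517 to 3837, while its adrenergic markers were the lowest of the 5 (2209 against 2651 to 3161 CPM). The part of these in its proteasome levels was not tested, and IMR-32 results that turn on it are given with and without it. Summed CPM of 11 proliferation genes were 4507 to 4653 in control, 1104 to 1468 at 24 h and 1078 to 1849 at 7 d in SK-N-BE(2)C. The same sums in IMR-32 were 3517 to 5019, 692 to 1089.8 and 1684 to 2499, and those of SH-SY5Y were 3597 to 4197, 715 to 922 and 768 to 1700.0. All 11 fell at 24 h in each line, as proteasome transcripts also moved, and the part of proliferation in the results below was not tested. The adrenergic marker TH, which makes the precursor of catecholamines, was close to absent in SH-SY5Y (0.349 CPM). Adrenergic markers summed to 2324 to 2814, 2209 to 3161 and 4245 to 5472 CPM in the controls, and of 9 tested 0, 2 and 1 were higher and 1, 1 and 1 lower at the longer time. Mesenchymal markers summed to 541 to 759, 442 to 1029.6 and 1259 to 1711 CPM in the controls and to 352 to 661, 165 to 309 and 979 to 1090.5 at the longer time, when 4 of 6, 4 of 4 and 3 of 7 tested were lower and 1, 0 and 1 higher. These shifts of state accompanied the changes below, and their part in them was not tested.

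After longer PB, the median log2 fold change of the proteasome transcripts was below 0 in all 3 lines and lowest in SK-N-BE(2)C, where most members fell. With TMM, the main scaling, no member rose past both limits (an adjusted p under 0.05 by edgeR and a log2 fold change over 0.5). At 7 d in SK-N-BE(2)C, 29 of 44 members tested fell and 0 rose, against 22.3% and 24.5% of all 14055 genes tested. Their median log2 fold change was -0.62, with 0.01 over all genes. At 5 d in SH-SY5Y, 10 of 44 fell and 0 rose, against 17.3% and 18.6% of 14547 genes, with a median of -0.34 beside 0.01. At 5 d in IMR-32, 8 of 43 fell and 0 rose, against 15.5% and 16.6% of 14293 genes, with a median of -0.33 beside 0.0028. Past the 0.5 limit, the shares that fell were 65.9%, 18.6% and 22.7% in the 3 lines in turn, so IMR-32 and SH-SY5Y lay closer to the background than SK-N-BE(2)C. For both the reading turned on 1 library, and for SH-SY5Y on the scaling as well. With the adjusted p alone, without a limit on size, 42 of 44, 25 of 43 and 32 of 44 members were lower in the 3 lines in turn. The shares of all genes were 35.8%, 25.6% and 32.5%, so with all libraries each line's members lay above the background at that threshold. With the adjusted p alone, 0, 2 and 2 were higher by line, short of the limit on size, and as many at an unadjusted p under 0.05. Past both limits, DESeq2 also called 0 higher in each. Without replicate 5 of the IMR-32 controls, the IMR-32 count was 4 (PSMC3, PSMG1, PSMA2 and PSME1), or 9.3% beside 14.6% of all genes in that fit, and the median -0.22. Without replicate 5 of the SH-SY5Y 5 d libraries, the SH-SY5Y count was 16, or 36.4% beside 18.6%. With library size alone, 6 of 44 SH-SY5Y members passed both limits, 5 of them among the 10 that fell. That is a share below the 17.3% of all genes with all libraries, which was not computed anew for that scaling.

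**Figure D1:**
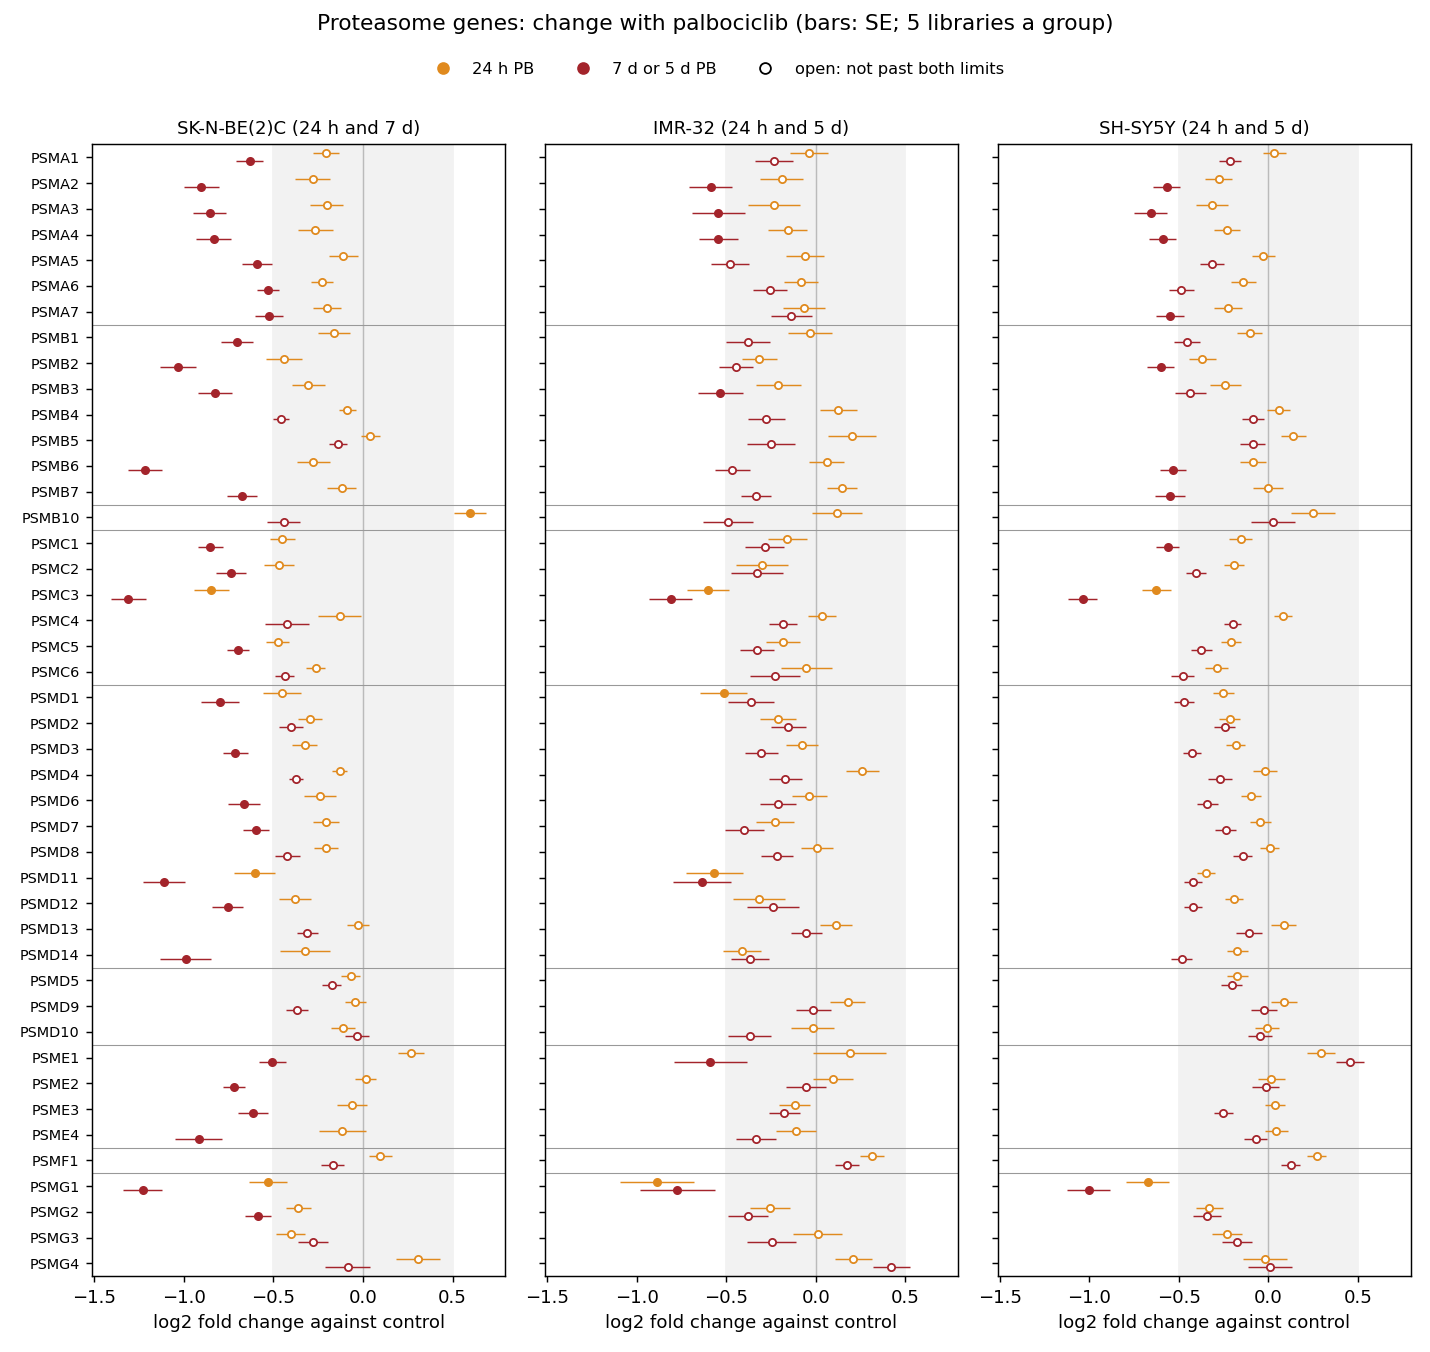
Log2 fold change against control (x axis) of each proteasome gene tested (y axis), 1 panel per line, at 24 h and at 7 d or 5 d of PB. Points are edgeR estimates from 5 libraries a group, bars are standard errors and open points did not pass both limits. At the longer time 29, 8 and 10 members passed to the left of 0 in the 3 lines in turn and none passed to the right.

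Of the 43 members tested in all 3 lines, 5 fell in each at the longer time. They were the alpha subunits PSMA2, PSMA3 and PSMA4, the regulatory ATPase PSMC3 and the core chaperone PSMG1. For comparison, 816 of 12556 genes tested in all 3 lines (6.50%) were lower in each. Without replicate 5 of the IMR-32 controls, PSMA3 and PSMA4 missed the limit on size in IMR-32 and 3 members remained (PSMA2, PSMC3 and PSMG1). That share of members is near the 6.50% of all genes, which was not computed anew without that library. With library size alone as the scaling, PSMA2 in SH-SY5Y lay just inside the limit on size, which left 4. The promoters of these members are printed because all 5 fell in each line with all libraries in. They come from RefSeq on GRCh38.p14, a later build than the hg19 of the counts, and run 5′ to 3′ on the gene's strand from 250 bases before the start to the base before it (PSMA2 shortened to its 201 bases outside MRPL32). Capitals mark CCAAT on either strand (ATTGG on the reverse) and TGACNNNGC, the core of the antioxidant response element that NFE2L1 and its relatives bind.
PSMA2 (chr7:42932175-42932375, minus strand): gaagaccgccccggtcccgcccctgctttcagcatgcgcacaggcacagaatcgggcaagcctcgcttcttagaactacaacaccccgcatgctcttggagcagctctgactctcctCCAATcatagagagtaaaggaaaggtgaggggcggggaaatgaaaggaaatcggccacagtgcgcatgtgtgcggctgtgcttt
PSMA3 (chr14:58244593-58244842, plus strand): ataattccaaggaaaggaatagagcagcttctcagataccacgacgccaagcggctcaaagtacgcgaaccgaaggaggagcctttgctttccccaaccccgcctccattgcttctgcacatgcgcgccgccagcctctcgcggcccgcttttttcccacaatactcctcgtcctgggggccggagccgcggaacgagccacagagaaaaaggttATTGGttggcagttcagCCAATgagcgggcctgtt
PSMA4 (chr15:78540155-78540404, plus strand): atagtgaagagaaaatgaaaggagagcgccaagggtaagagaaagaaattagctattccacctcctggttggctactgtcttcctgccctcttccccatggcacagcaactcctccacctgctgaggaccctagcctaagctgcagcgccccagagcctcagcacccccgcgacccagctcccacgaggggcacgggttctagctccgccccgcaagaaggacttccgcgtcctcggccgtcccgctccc
PSMC3 (chr11:47426440-47426689, minus strand): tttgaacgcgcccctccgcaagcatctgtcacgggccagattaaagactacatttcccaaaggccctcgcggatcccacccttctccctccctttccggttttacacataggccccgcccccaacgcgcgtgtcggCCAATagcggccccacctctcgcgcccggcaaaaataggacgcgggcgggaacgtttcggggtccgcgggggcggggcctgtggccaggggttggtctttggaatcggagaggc
PSMG1 (chr21:39183452-39183701, minus strand): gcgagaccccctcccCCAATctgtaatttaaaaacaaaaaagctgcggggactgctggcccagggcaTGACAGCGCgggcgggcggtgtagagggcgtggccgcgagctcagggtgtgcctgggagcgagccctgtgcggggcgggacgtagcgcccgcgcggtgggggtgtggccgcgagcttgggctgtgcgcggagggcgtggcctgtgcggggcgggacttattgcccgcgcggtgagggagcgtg
RefSeq lists 47 promoters for 39 members, some with more than 1 start. CCAAT occurred in 19 of them (40.4%), against 34.6% of 35116 promoters and 35% of the 14286 of genes tested in all 3 lines. TGACNNNGC occurred in 14 (29.8%), against 13.3% and 14.7%. The window searched for these counts was 250 bases before to 50 after each start, on both strands. The E2F letters TTTCCCGC, TTTCGCGC, TTTGCCGC or TTTGGCGC occurred in 4 (8.51%, against 3.31% and 4.93%), and the E-box CACGTG in 3 (6.38%, against 7.26% and 9.46%). Of the 5 printed, 4 held CCAAT and 1 held TGACNNNGC. PSMA4 held neither at the start printed, the first of its 3 listed, and each motif at 1 of the others. A match of letters is a description and no measure of binding.

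PSMC3 (chr11:47440320-47448024, minus strand, GRCh37) encodes an ATPase of the ring that unfolds substrates. In SK-N-BE(2)C its 5 controls held 144, 159, 153, 154 and 146 CPM, the 24 h libraries 85.8, 92.01, 79.6, 84.3 and 88.3 and the 7 d libraries 79.1, 55.9, 49.8, 66.02 and 63.5. The 3 groups did not overlap, and the fold changes were -0.85 ± 0.10 at 24 h and -1.31 ± 0.10 at 7 d (log2, ± SE; adjusted p = 2.56e-06 and 6.29e-09). In IMR-32 the controls held 183, 165, 187, 169.7 and 239.7 CPM, the 24 h libraries 112, 129, 110.5, 107 and 146 and the 5 d libraries 119, 97.5, 112, 99.1 and 116, so both treated groups lay below every control and overlapped each other. Its log2 fold changes there were -0.60 ± 0.12 and -0.81 ± 0.12 (adjusted p = 0.00114 and 5.74e-05), and the 24 h value was -0.49 without control replicate 5, just inside the 0.5 limit, and the 5 d value -0.70. In SH-SY5Y, where controls held 184, 164, 184, 169.5 and 184 CPM, 24 h libraries 125, 99.1, 121, 115 and 118 and 5 d libraries 84.99, 79.3, 100.2, 82.5 and 106, treated groups were again below every control, with log2 fold changes of -0.63 ± 0.08 and -1.04 ± 0.08 (adjusted p = 4.89e-06 and 8.29e-09). PSMC3 was the core or regulatory subunit that had the lowest log2 fold change at the longer time in all 3 lines.

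PSMG1 (chr21:40546695-40555414, minus strand) encodes a chaperone that pairs with PSMG2 to build the alpha ring. Controls held 73.3, 76.1, 69.2, 75.3 and 71.05 CPM in SK-N-BE(2)C, and the levels there were 53.5, 54.2, 49.8, 49.2 and 51.6 at 24 h and 35.2, 21.6, 32.3, 38.1 and 33.1 at 7 d. In IMR-32 they were 27.5, 26.8, 35.3, 26.4 and 46.7 in control, 12.03, 18.3, 15.96, 13.1 and 25.99 at 24 h and 19.02, 15.8, 20.2, 19.2 and 21.96 at 5 d. In SH-SY5Y they were 29.8, 26.8, 28.7, 28.2 and 29.03 in control, then 18.3, 15.6, 16.7, 20.8 and 18.4 at 24 h, then 10.8, 12.7, 17.6, 15.5 and 17.8 at 5 d. Every treated library lay below every control of its line. The log2 fold changes were -0.53 ± 0.11, -0.89 ± 0.21 and -0.67 ± 0.12 after 24 h, by line in turn, and -1.23 ± 0.11, -0.77 ± 0.21 and -1.003 ± 0.12 after longer PB. Without control replicate 5 the IMR-32 values were -0.71 and -0.60. The largest of the 6 adjusted p was 0.00587.

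**Figure D2:**
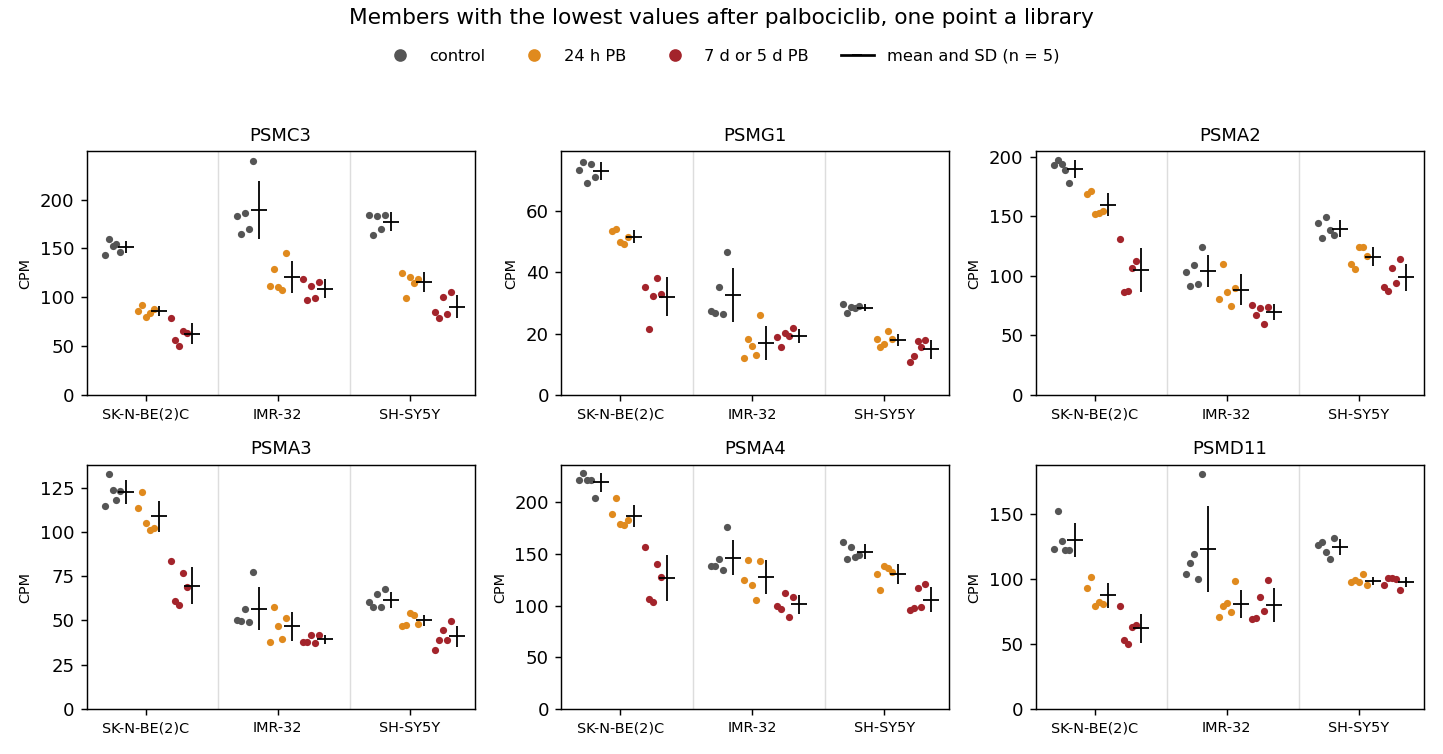
Level in CPM (y axis, from 0) in every library of PSMC3, PSMG1, PSMA2, PSMA3, PSMA4 and PSMD11, by line and condition (x axis), with the mean and SD of 5 libraries beside the points. PSMC3 lay between 144 and 159 in SK-N-BE(2)C controls and between 49.8 and 79.1 at 7 d, and the highest IMR-32 control point of each gene is replicate 5.

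Of the alpha subunits, which form the gated outer rings, all 7 fell at 7 d in SK-N-BE(2)C, while 3 fell at 5 d in IMR-32 and 4 did so in SH-SY5Y, where 22.3%, 15.5% and 17.3% of all genes fell in the 3 lines in turn. The IMR-32 count was 1 (PSMA2) without control replicate 5, and with library size alone PSMA2 and PSMA7 missed the limit on size in SH-SY5Y, and PSMA6 and PSMA7 in SK-N-BE(2)C. PSMA2 (chr7:42956427-42971784, minus strand) had 193, 197, 193, 189 and 178 CPM in SK-N-BE(2)C controls and 131, 86.5, 87.2, 107 and 112 at 7 d. The IMR-32 controls had 103, 91.8, 109, 92.8 and 124 CPM of PSMA2 and the 5 d libraries 75.97, 67.2, 72.9, 59.7 and 73.7. For SH-SY5Y the PSMA2 levels were 144, 132, 149, 139 and 134 CPM in control and 90.8, 87.5, 106, 94.4 and 115 at 5 d. Control and treated libraries did not overlap in any line, and the log2 fold changes were -0.90 ± 0.10, -0.59 ± 0.12 and -0.57 ± 0.08 (adjusted p = 4.64e-07, 8.64e-04 and 3.32e-06). PSMA3 (chr14:58711561-58738730, plus strand) had 115, 133, 124, 118 and 123 CPM in SK-N-BE(2)C controls and 83.6, 60.8, 58.5, 76.6 and 69.1 at 7 d. The IMR-32 controls had 50.3, 49.9, 56.6, 49.02 and 77.6 CPM of PSMA3 and the 5 d libraries 37.9, 37.6, 42.02, 37.3 and 41.6. For SH-SY5Y the PSMA3 levels were 60.2, 57.9, 64.8, 57.7 and 67.9 CPM in control and 33.5, 38.8, 44.4, 38.9 and 49.5 at 5 d. Control and treated libraries of PSMA3 did not overlap either, and its log2 fold changes were -0.86 ± 0.09, -0.54 ± 0.15 and -0.66 ± 0.09 (adjusted p = 4.52e-07, 0.00588 and 5.53e-06), and the IMR-32 value was -0.39 without control replicate 5, which held 77.6 CPM. PSMA4 (chr15:78832747-78844759, plus strand) changed by -0.83 ± 0.10, -0.54 ± 0.11 and -0.59 ± 0.07 (log2; adjusted p = 1.08e-06, 7.70e-04 and 1.63e-06), and the IMR-32 value was -0.46 without that library. PSMA1, PSMA5 and PSMA6 passed both limits at the longer time in SK-N-BE(2)C, and PSMA7 there and in SH-SY5Y, and for none of them did the response differ between lines in the tests given below.

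Of the 3 catalytic beta subunits, PSMB6 and PSMB7 fell past both limits in SK-N-BE(2)C and also in SH-SY5Y, and PSMB5 in no line, though the difference between subunits was not tested. With library size alone the SH-SY5Y values were -0.46 for PSMB6 and -0.48 for PSMB7, short of the limit, as were PSMB6 without control replicate 3 (-0.49) and PSMB7 without 5 d replicate 1 (-0.50). PSMB5 (chr14:23485752-23504439, minus strand), the chymotrypsin-like subunit and the main target of proteasome inhibitor drugs, held 248, 268, 285, 267 and 263 CPM in SK-N-BE(2)C controls and 271, 243, 233, 245 and 251 at 7 d, and the groups overlapped. It did not pass the limit on size at the longer time in any line, with log2 fold changes of -0.14 ± 0.05, -0.25 ± 0.13 and -0.09 ± 0.07 in the 3 lines in turn, and it was the core or regulatory subunit that changed least in SK-N-BE(2)C. PSMB6 (chr17:4699439-4701797, plus strand), the caspase-like subunit, held 87.8, 90.9, 92.7, 87.5 and 90.4 CPM in SK-N-BE(2)C controls, 76.6, 78.9, 72.7, 70.8 and 79.8 at 24 h and 50.8, 34.4, 33.4, 41.5 and 39.3 at 7 d. It fell by 1.22 on the log2 scale at 7 d (SE 0.09, adjusted p = 9.78e-09), to below every control and every 24 h library. In SH-SY5Y, PSMB6 had 93.7, 89.1, 105, 87.7 and 95.7 CPM in control and 68.1, 61.8, 78.7, 62.9 and 70.1 at 5 d, a log2 fold change of -0.53 ± 0.07 (adjusted p = 4.71e-06). In IMR-32, its control libraries held 89.6, 86.5, 96.7, 90.9 and 102 CPM and the 5 d libraries 70.9, 66.4, 69.8, 65.3 and 67.8, without overlap, and the log2 fold change of -0.47 ± 0.10 (adjusted p = 0.00102) missed the limit on size.

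PSMB7 (chr9:127115744-127177723, minus strand), the trypsin-like subunit, changed by -0.67 ± 0.08, -0.33 ± 0.08 and -0.55 ± 0.09 (log2; adjusted p = 1.49e-06, 0.00381 and 1.96e-05), past both limits in SH-SY5Y and SK-N-BE(2)C. Among the other beta subunits, which are structural, PSMB2 passed both limits in SK-N-BE(2)C and also in SH-SY5Y (log2 fold changes of -1.03 and -0.60), PSMB3 in IMR-32 and SK-N-BE(2)C (-0.53, or -0.46 and short of the limit without IMR-32 control replicate 5, and -0.83) and PSMB1 in SK-N-BE(2)C (-0.70). PSMB4 passed no limit on size in any line and changed least of all core and regulatory subunits in SH-SY5Y, at -0.09 ± 0.06. PSMB10 (chr16:67968409-67970767, minus strand), which replaces PSMB7 in the interferon-induced proteasome, was higher at 24 h and lower at 7 d in SK-N-BE(2)C. There it held 17.7, 16.1, 17.9, 17.8 and 17.9 CPM in control, 24.9, 26.7, 28.2, 26.9 and 28.4 at 24 h and 12.9, 10.6, 14.3, 12.2 and 16.03 at 7 d, so that every 24 h library was above every control and every 7 d library below. The 24 h rise was 0.60 ± 0.09 (log2; adjusted p = 5.00e-05), and the level at 7 d was -0.44 ± 0.09 against control (adjusted p = 4.38e-04), short of the limit on size. Interferon-response genes summed to 451 to 542 CPM in SK-N-BE(2)C controls, 496 to 588 at 24 h and 460.1 to 528 at 7 d, with 2 of 9 higher and 1 lower at 24 h and 0 higher and 2 lower at 7 d, and their part in the PSMB10 change was not tested. In IMR-32 and SH-SY5Y, PSMB10 had 8.92 to 11.1 and 9.02 to 12.5 CPM in control and changed by -0.49 ± 0.14 and 0.03 ± 0.12 at 5 d, neither past both limits. PSMB11, the thymus subunit, had 0 to 2 counts in every library and could not be tested.

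**Figure D3:**
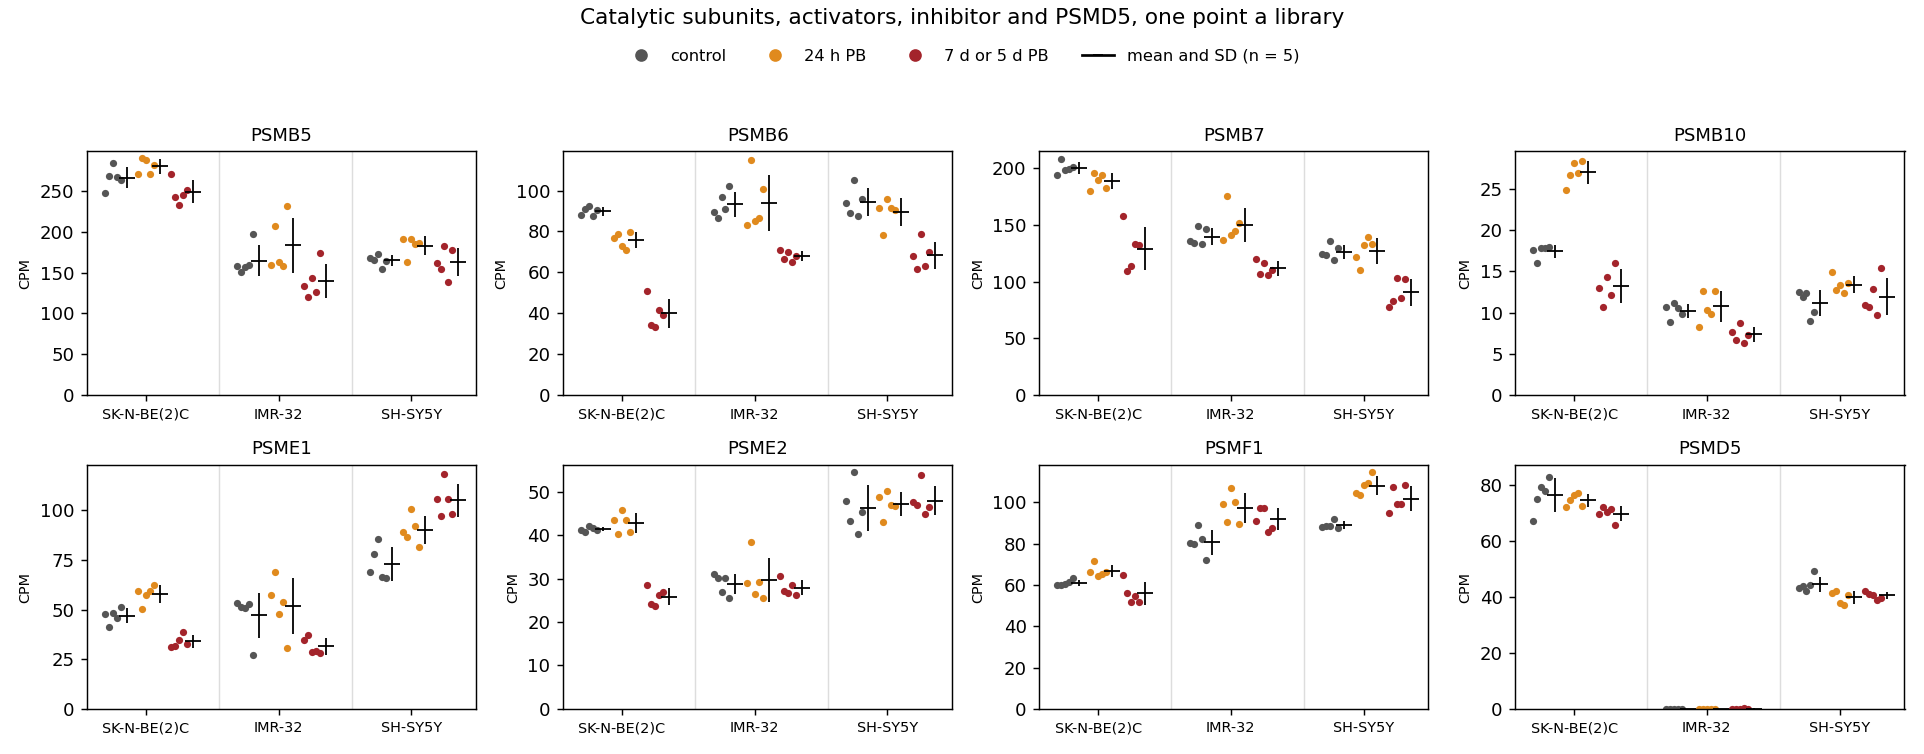
Level in CPM (y axis, from 0) in every library of the catalytic subunits PSMB5, PSMB6, PSMB7 and PSMB10, the activators PSME1 and PSME2, the inhibitor PSMF1 and the chaperone PSMD5, by line and condition (x axis), with the mean and SD of 5 libraries. PSMB5 stayed between 233 and 290 in SK-N-BE(2)C, PSMB6 there went from 87.5 to 92.7 in control to 33.4 to 50.8 at 7 d, and PSMD5 lay at 0 to 0.274 in IMR-32.

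Regulatory subunits had medians below 0 in all 3 lines as well, with most calls in SK-N-BE(2)C. At the longer time 11, 2 and 2 of 17 subunits fell in the 3 lines in turn, beside 12, 4 and 7 of the 14 standard core subunits. As shares these were 64.7%, 11.8% and 11.8% of regulatory and 85.7%, 28.6% and 50% of core subunits, so that the regulatory share was above the 22.3% of all genes in SK-N-BE(2)C and below the 15.5% of IMR-32 and the 17.3% of SH-SY5Y. Without control replicate 5, 1 core subunit (PSMA2) and 1 regulatory subunit (PSMC3) fell in IMR-32. With library size alone, the core subunits PSMA2, PSMA7, PSMB6 and PSMB7 and the regulatory PSMC1 missed the limit on size in SH-SY5Y. The SH-SY5Y fit without 5 d replicate 5, in which more members fell, was not split by class. The median log2 fold changes of the regulatory and the core subunits were -0.70 and -0.69 at 7 d in SK-N-BE(2)C, then -0.28 and -0.41 for IMR-32, then -0.40 and -0.51 for SH-SY5Y, and the difference between the 2 classes was not tested. The IMR-32 medians were -0.17 and -0.34 without control replicate 5. PSMD11 (chr17:30771397-30810337, plus strand), a scaffold subunit that joins the regulatory particle to the core, held 123, 153, 129.7, 123 and 122 CPM in SK-N-BE(2)C controls, 93.4, 102, 79.2, 82.03 and 80.7 at 24 h and 78.9, 53.1, 50.02, 63.3 and 64.9 at 7 d. All 24 h and 7 d libraries were below all controls, with log2 fold changes of -0.61 ± 0.12 and -1.11 ± 0.12 (adjusted p = 4.91e-04 and 4.09e-07). In IMR-32 it changed by -0.63 ± 0.16 at 5 d (adjusted p = 0.00402), or by -0.45 without control replicate 5, whose 181 CPM stood above the 100.0 to 119 of the others. In SH-SY5Y it changed by -0.42 ± 0.05 (adjusted p = 6.41e-07), short of the limit on size. PSMD14, the subunit that removes ubiquitin chains, fell by 0.99 on the log2 scale in SK-N-BE(2)C, and had 72.8 to 87.2 CPM in control and 29.3 to 53.3 at 7 d. PSMC1, another ATPase, changed by -0.85 ± 0.07 in SK-N-BE(2)C, and by -0.56 ± 0.07 at 5 d in SH-SY5Y, past both limits in each, though short of the limit on size in SH-SY5Y with library size alone. PSMD13 changed least of the core and regulatory subunits in IMR-32, at -0.05 ± 0.09, with 98.4, 87.8, 95.8, 93.98 and 106 CPM in control and 93.7, 96.2, 89.5, 94.1 and 95.2 at 5 d. Exons of 16 members, PSMA2, PSMD11 and all activators among them, overlap exons transcribed from the other strand, and the strand setting of the counting is not given, so their values are less certain. Without those 16, the members lower at the longer time were 16 of 28, 5 of 27 and 8 of 28 by line, beside the 22.3%, 15.5% and 17.3% of all genes given above, with the IMR-32 share near its background. Without control replicate 5, only PSMC3 and PSMG1 of those 27 were lower in IMR-32, a share below the 14.6% of all genes in that fit.

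Of the activators, PSME1, PSME2 and PSME4 changed to different extents between lines by the tests given below. All 4 activators, the PSME1 and PSME2 pair that interferon induces, the nuclear PSME3 and PSME4, fell in SK-N-BE(2)C at 7 d, as did 22.3% of all genes, with log2 fold changes of -0.51, -0.72, -0.61 and -0.92. The libraries at 7 d held 64.2, 35.95, 43.4, 60.8 and 62.7 CPM of PSME4 against 96.9, 105, 94.6, 97.1 and 95.5 in control. PSME1 (chr14:24605372-24608176, plus strand) held 47.6, 41.1, 48.4, 45.8 and 51.2 CPM in SK-N-BE(2)C controls and 31.3, 31.9, 34.9, 38.9 and 32.8 at 7 d, a fold change near the limit (-0.51 ± 0.07, adjusted p = 1.25e-05) that was -0.49 with RLE factors and -0.46 with library size alone. In IMR-32 the PSME1 levels were 53.5, 51.4, 50.6, 52.6 and 27.2 CPM in control and 34.7, 37.3, 28.8, 28.9 and 27.9 at 5 d, and the log2 fold change of -0.59 ± 0.20 had an adjusted p of 0.0250. The outlying control, replicate 5, held 27.2 CPM, below all 5 d libraries, and without it the log2 fold change was -0.73. Leaving out control replicate 1 or 4 or 5 d replicate 3, 4 or 5 gave adjusted p of 0.0508 to 0.0570, above the threshold of 0.05. In SH-SY5Y, PSME1 was higher at 5 d, with 68.9, 77.9, 85.6, 66.3 and 65.9 CPM in control and 106, 97.1, 118, 106 and 98.1 at 5 d. Those groups did not overlap, and the log2 fold change of 0.46 ± 0.08 (adjusted p = 4.86e-05) missed the limit on size. It missed it by less than the 0.07 by which library size alone raised the median of all genes, so this depends on the scaling. PSME2 held 40.4 to 54.5 CPM in SH-SY5Y controls and 44.9 to 53.8 at 5 d. PSMF1, the inhibitor, passed both limits in no comparison. Its levels were 88.05, 88.5, 88.5, 92.01 and 87.8 CPM in SH-SY5Y controls, 104, 104, 108, 109 and 115 at 24 h and 94.8, 107, 99.1, 99.01 and 108 at 5 d, so both treated groups were above the controls, by 0.27 ± 0.05 and 0.12 ± 0.05 (log2; adjusted p = 3.44e-04 and 0.0456).

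Of the chaperones of core assembly other than PSMG1, PSMG2 fell in SK-N-BE(2)C at 7 d (-0.59 ± 0.07), while PSMG3 and PSMG4 passed both limits in no line. PSMG4 was at 0.42 ± 0.10 in IMR-32 (adjusted p = 0.00319). The chaperones of the ATPase base, PSMD5, PSMD9 and PSMD10, also passed both limits nowhere, with log2 fold changes of -0.17, -0.37 and -0.03 at 7 d in SK-N-BE(2)C. PSMD5 (chr9:123577774-123605229, minus strand) could not be tested in IMR-32, where its 5 controls held 1, 0, 0, 1 and 1 counts, each 24 h library held 0 and the 5 d libraries held 0, 2, 0, 5 and 0. Over the other lines it had 640 to 1897 counts a library. The 15 IMR-32 libraries thus held 10 counts in all. Its neighbours B3GALT9, FBXW2, MEGF9, PHF19, TRAF1 and C5, the 3 nearest on each side and looked at after this was seen, had mean levels of 4.13, 101, 43.95, 82.5, 0.313 and 12.5 CPM in IMR-32 controls, beside 3.68, 119.6, 52.7, 115, 2.03 and 3.55 in SK-N-BE(2)C controls and 11.03, 128, 39.8, 102, 1.05 and 31.6 in SH-SY5Y controls. TRAF1, low in every line, was lowest in IMR-32.

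After 24 h few members passed the limits, and PSMC3 and PSMG1 did so in all 3 lines with all libraries, although PSMG1 in SK-N-BE(2)C lay just inside the limit on size with library size alone. In SK-N-BE(2)C, 3 members fell (PSMC3, PSMD11 and PSMG1) and 1 rose (PSMB10), against 10.6% and 10.9% of all genes, and 8 passed without replicate 2 of the 24 h libraries, 7 of them lower (15.9% beside 11% of genes). In IMR-32, 4 fell (PSMC3, PSMD1, PSMD11 and PSMG1) and 0 rose, against 10.5% and 7.87%. PSMG1 was the 1 left without control replicate 5, when the median of the members turned from -0.07 to 0.01. PSMD1 also missed the limit on size with the replicate number as a block (-0.495). In SH-SY5Y, 2 fell (PSMC3 and PSMG1) and 0 rose, against 11% and 10.5%. With all libraries, shares of members past both limits were thus below the background in each line. With the adjusted p alone, 2 members were higher in each line, of which PSMB10 in SK-N-BE(2)C passed the limit on size. At an unadjusted p under 0.05, 3, 2 and 2 were higher by line. Past both limits, DESeq2 called 0 higher in IMR-32 and SH-SY5Y. With the adjusted p alone, 25 of 44, 6 of 43 and 20 of 44 members were lower in the 3 lines in turn, beside 23%, 15.6% and 22.8% of genes. At that threshold the share was above the background in SK-N-BE(2)C and SH-SY5Y and below it in IMR-32. Median log2 fold changes of the members were -0.21, -0.07 and -0.12. The regulatory subunits had lower medians at this time (-0.32, -0.18 and -0.18) than the standard core subunits (-0.20, -0.06 and -0.12), of which none passed both limits in any line. Without control replicate 5 the IMR-32 medians were -0.11 and 0.01. Over all 12556 genes tested in the 3 lines, 729 (5.81%) were lower in each at 24 h, beside the 2 members of 43. The 24 h and the longer comparison of a line share their control libraries.

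From 24 h to the longer time, median log2 fold changes were below 0 in all 3 lines, and lower for the core than for the regulatory subunits. From 24 h to 7 d in SK-N-BE(2)C, 16 members fell and 0 rose, against 14.4% and 17.5% of genes. These included 8 of 14 standard core subunits, all 4 activators, PSMB10 and PSMG1, but 2 of 17 regulatory subunits (PSMD11 and PSMD14). Of the 16, 10 passed both limits under each other scaling, filter, DESeq2, the block and each library left out. PSMA4, PSMB1, PSMB3, PSMB7 and PSME3 fell just short of the limit on size without 1 library (24 h replicate 2 or 7 d replicate 2 or 3). PSMD11 was at the limit on size (-0.51) and missed it with RLE factors (-0.49), library size alone and DESeq2, and without any 1 of 4 libraries (24 h replicate 1 or 2, 7 d replicate 2 or 3; -0.48 to -0.43). PSMB10 had been higher at 24 h than in control, and the 4 activators had not passed both limits at 24 h. PSMB10 changed by -1.04 ± 0.09 and PSMB6 by -0.94 ± 0.09 (log2; adjusted p = 1.48e-07 and 4.98e-07). In IMR-32, 3 fell from 24 h to 5 d (PSME1, PSMB10 and PSMB6) and 0 rose, against 8.86% and 10.8%, and 5 without replicate 1 of the 24 h libraries (11.6% of members beside 8.62% of genes in that fit). PSMB6 missed the limit on size with library size alone (-0.47) and without 24 h replicate 2 (-0.43). In SH-SY5Y, 1 fell (PSMB7, -0.55 ± 0.09) and 0 rose, against 6.23% and 10.5%, with 0 calls without 5 d replicate 1 or 2 and 2 without 5 d replicate 3. Past both limits, the SK-N-BE(2)C share was above the background and the SH-SY5Y share below it. The IMR-32 share was below it with all libraries and above it without replicate 1 of the 24 h libraries. At an unadjusted p under 0.05, 0, 0 and 1 members were higher in the 3 lines in turn, and DESeq2 called 0 in each. With the adjusted p alone, 40 of 44, 13 of 43 and 30 of 44 were lower, beside 30%, 17.8% and 21.4% of genes, each share above the background. Core medians from 24 h to the longer time were -0.53, -0.37 and -0.31, and regulatory medians -0.35, -0.16 and -0.22 (log2).

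The summed levels are given as a description, with no test. The 14 standard core subunits of SK-N-BE(2)C summed to 2586 ± 75.9 CPM in control, 2330.2 ± 95.7 at 24 h and 1724 ± 203 at 7 d (SD, n = 5), or 90.1% and 66.7% of control. The 17 regulatory subunits there summed to 3303 ± 130.1, 2667 ± 177 and 2189 ± 234 CPM, or 80.7% and 66.3% of control. In IMR-32, core and regulatory sums were at 94.7% and 85.97% of control at 24 h and at 79.5% and 82.2% at 5 d. Against the 4 controls other than replicate 5, those sums were at 98.9% and 91.4% at 24 h and at 83.1% and 87.4% at 5 d. In SH-SY5Y they were at 93.8% and 90.3% at 24 h, then 80.04% and 81.7% at 5 d. The ratio of the regulatory to the core sum, a ratio of reads and not of molecules, was 1.29, 1.31, 1.25, 1.26 and 1.28 in SK-N-BE(2)C controls, 1.15, 1.19, 1.12, 1.14 and 1.12 at 24 h and 1.25, 1.32, 1.26, 1.26 and 1.27 at 7 d. All 24 h values there were below all controls and all 7 d values, and control and 7 d values overlapped. In IMR-32 the ratio was 1.26 to 1.37 in control, 1.04 to 1.22 at 24 h and 1.30 to 1.37 at 5 d, also with every 24 h value lowest. In SH-SY5Y it was 1.36 to 1.44, 1.32 to 1.42 and 1.37 to 1.51, and the 3 groups overlapped.

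**Figure D4:**
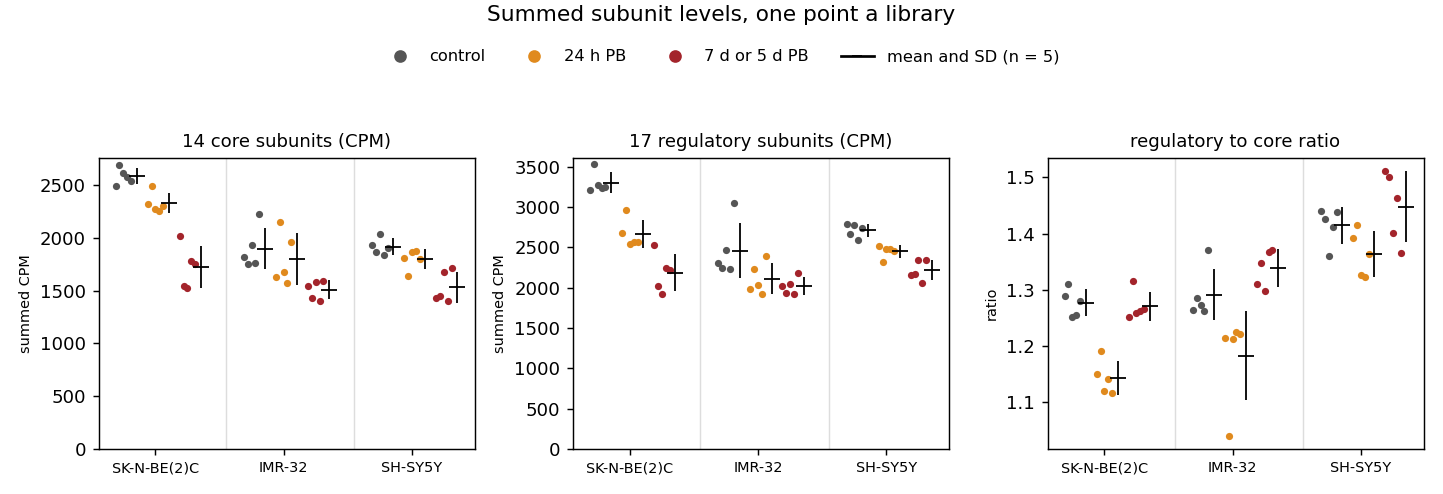
Summed CPM of the 14 standard core subunits and of the 17 regulatory subunits (left and middle, y axes from 0) and their ratio (right, y axis not from 0) in every library, by line and condition (x axis), with the mean and SD of 5 libraries. The ratio of SK-N-BE(2)C libraries lay at 1.12 to 1.19 at 24 h, below the 1.25 to 1.31 of the controls and the 1.25 to 1.32 at 7 d.

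Whether the response differed between lines was tested in 1 fit of all 45 libraries. At 24 h, edgeR found 0 members whose response differed past both limits for SK-N-BE(2)C against IMR-32 (4.49% of all genes), 0 for SK-N-BE(2)C against SH-SY5Y (2.04%) and 0 for IMR-32 against SH-SY5Y (3.07%), although 10, 6 and 1 had an unadjusted p under 0.05. DESeq2 was not run for these differences. At the longer time, 6 members had a lower log2 fold change in SK-N-BE(2)C than in IMR-32 (23.9% of all genes differed in either direction), 6 a lower one in SK-N-BE(2)C than in SH-SY5Y (21.2%) and 2 (PSMB10 and PSME1) a lower one in IMR-32 than in SH-SY5Y (20.8%). All 3 counts are below the background. PSMB6, PSMD14, PSME2 and PSME4 had a lower log2 fold change in SK-N-BE(2)C than in either other line. For PSMB6 the difference in log2 fold change was -0.72 ± 0.13 against IMR-32 and -0.71 ± 0.13 against SH-SY5Y (± SE; adjusted p = 2.82e-05 and 3.99e-05). For PSME4 it was -0.55 ± 0.16 and -0.88 ± 0.16 (adjusted p = 0.00485 and 2.96e-05). PSME1 differed most, by -0.99 ± 0.20 for SK-N-BE(2)C and -1.11 ± 0.20 for IMR-32, both against SH-SY5Y (adjusted p = 1.49e-04 and 3.71e-05). The longer time was 7 d in SK-N-BE(2)C and 5 d in the other lines, so line and duration cannot be told apart in these values. Without replicate 5 of IMR-32, left out after seeing the data, 12 of 44 members differed between SK-N-BE(2)C and IMR-32 at the longer time (27.3%, beside 26.9% of all genes in that fit) and 1 (PSMB10) at 24 h. PSMB10 also differed at 24 h without replicate 2 of the IMR-32 24 h libraries. The 44 include PSMD5, nearly absent in IMR-32, and with all libraries no count changed when PSMD5 was left out.

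Control cells of SK-N-BE(2)C held more of several members than the other lines. PSMD5, with 10 counts over all IMR-32 libraries, passed the filter on low counts here through the other lines and is left out of the counts with IMR-32. The control level was higher in SK-N-BE(2)C than in SH-SY5Y for 25 of 44 members and lower for 1 (PSMD13), in all 59.1% of members beside 57.5% of all genes. It was higher in SK-N-BE(2)C than in IMR-32 for 20 of 43 and lower for 1 (PSME4), or 48.8% beside 62.1%. Between IMR-32 and SH-SY5Y, 3 were higher in IMR-32 (PSMA5, PSMA7 and PSME3) and 2 lower (PSMD7 and PSME2), or 11.6% beside 54.2%. The share of members that differed was thus near the background for SH-SY5Y against SK-N-BE(2)C and below it in the other pairs. Median log2 differences over the members were 0.65, 0.41 and 0.08 in that order. PSMG1 was 1.18 ± 0.16 above IMR-32 and 1.56 ± 0.16 above SH-SY5Y in SK-N-BE(2)C controls (log2; adjusted p = 6.42e-09 and 9.73e-12). All members summed to 6587 to 7134 CPM in SK-N-BE(2)C controls, 4748 to 6165 in IMR-32 and 5224 to 5634 in SH-SY5Y, and to 4049.5 to 5232, 4015 to 4490.1 and 4247 to 4905 at the longer time. The summed levels of the 3 lines overlapped after treatment but SK-N-BE(2)C was above the others before it.

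Genes that work beside the proteasome but lie outside the rule were lower past both limits in shares near or below those of all genes. Of 31 tested, which include other regulatory subunits, maturation factors, the ubiquitin genes and ubiquitin receptors, 2 rose and 7 fell at 7 d in SK-N-BE(2)C, 0 rose and 2 fell at 5 d in IMR-32, and 1 rose and 2 fell at 5 d in SH-SY5Y. The shares lower were 22.6%, 6.45% and 6.45% in the 3 lines in turn, against 22.3%, 15.5% and 17.3% of all genes. With the adjusted p alone, 15, 8 and 16 of the 31 were lower and 5, 5 and 4 higher. Of all genes, 35.8%, 25.6% and 32.5% were lower at that threshold. The share lower was then above the background in SK-N-BE(2)C and SH-SY5Y and near it in IMR-32. None passed both limits in the same direction in all 3 lines. POMP, the maturation factor of the core particle, changed by -0.86 ± 0.11, -0.29 ± 0.11 and -0.51 ± 0.06 in the 3 lines in turn (log2; adjusted p = 4.30e-06, 0.0382 and 8.96e-07), past both limits in SH-SY5Y and SK-N-BE(2)C. NFE2L1, the transcription factor named above, held 409, 384, 455, 451 and 448 CPM in SK-N-BE(2)C controls and 567, 711, 729, 656 and 666 at 7 d, a rise of 0.59 ± 0.08 (log2; adjusted p = 4.60e-06) while most members fell. In IMR-32 and SH-SY5Y it was at 0.14 ± 0.13 and 0.11 ± 0.06 (adjusted p = 0.369 and 0.0952).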

How the data were processed

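RNA was taken from 45 cultures, 5 for each of 9 groups (3 lines by control, 24 h and longer PB), and sequenced from poly(A) libraries as strand-marked read pairs of NovaSeq. The deposited counts were made by the authors by trimming with TrimGalore (minimum phred score 20), aligning to hg19 with STAR and counting reads per gene in STAR. The submitters' processing notes name Trim Galore 0.6.4, STAR 2.6.1d and DESeq2 1.32.0. The strand setting and the annotation are not given in the sources used here. One allele of a line and the level of one marker are not reported here. A deposited table of CPM and the authors' own comparisons (fold changes and p-values) were not used.

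Tests used edgeR 4.0.16 under R 4.3.3. For each line, its 15 libraries were scaled by TMM, low genes were dropped (filterByExpr, minimum 10, total 15, share 0.7), and the robust quasi-likelihood model had a mean for every group, with F tests and Benjamini-Hochberg adjustment over all genes tested (14055, 14293 and 14547, by line). Calls needed an adjusted p under 0.05 together with an absolute change over 0.5 (log2). A fit of all 45 libraries (16282 genes) tested differences between lines. DESeq2 1.42.0, RLE factors, library size alone, no filter, no limit on size, a replicate block, 45 libraries in 1 fit, summed close libraries and each library left out were the alternatives. The code of the fits was run on simulated counts with the same spread for every gene and no outlying library. That does not test how the fits behave with the uneven replicates here. Depth was 13459219 to 25441812 counts, with a biological coefficient of variation of 13.8%, 19.8% and 11.2% by line.

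Samples with the same replicate number deviated together in 7 of 9 comparisons (every correlation over 0.1), but not at 7 d against control (0.0966 to 0.354) or 24 h (0.0482 to 0.478) in SK-N-BE(2)C. The numbers come from the sample titles.

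The members and lists were chosen with earlier results of these data known. Catalytic subunits, activators, inhibitor and chaperones were named whatever their change, with at most the 6 largest calls a comparison, calls shared by all lines and the core or regulatory subunits that changed most and least, and, of the companion genes, NFE2L1 and POMP. PSMA1, PSMA5, PSMA6, PSMA7, PSMB1, PSMB3, PSMC1 and PSMD7 were named after their values were seen. Gene positions follow GENCODE on GRCh37. Each of 25 listed pseudogenes of members had at most 2.73% of its parent's level. Promoters of 39 of 45 members were found in RefSeq (GRCh38.p14).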

Additional observations from a re-analysis of the deposited data

Results flagged for a closer look

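Among 153 groups of 5 values examined, 18 held 1 library far from the other 4, where chance flags about 1 in 20 groups, and 8 of the 18 were replicate 5 of the IMR-32 controls. Levels in that library, with the range of the other 4 controls in brackets, were 77.6 (49.02 to 56.6) CPM for PSMA3, 176 (134 to 145) for PSMA4, 198 (151 to 159.8) for PSMB5, 239.7 (165 to 187) for PSMC3 and 181 (99.96 to 119) for PSMD11. It was low in PSME1, at 27.2 (50.6 to 53.5) CPM. Its regulatory sum was 3049 (2229 to 2466) CPM and its regulatory to core ratio 1.37 (1.26 to 1.29). Replicate 2 of the IMR-32 24 h libraries had 38.3 (25.5 to 29.2) CPM of PSME2 and a ratio of 1.04 (1.21 to 1.22).

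In SK-N-BE(2)C, replicate 2 was the library apart each time. As a control it held 16.1 (17.7 to 17.9) CPM of PSMB10, 153 (122 to 129.7) of PSMD11 and 3533 (3218 to 3275) of all regulatory subunits. At 24 h it held 71.4 (64.4 to 66.2) CPM of PSMF1, and at 7 d its regulatory to core ratio was 1.32 (1.25 to 1.27). In SH-SY5Y, the values apart were 163 (185 to 191) CPM of PSMB5 in 24 h replicate 2, 49.3 (42.2 to 44.1) of PSMD5 in control replicate 5 and 92.01 (87.8 to 88.5) of PSMF1 in control replicate 4.

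Responses at the longer time that differed between lines by the edgeR interaction test, as differences in log2 fold change, were as follows. For SK-N-BE(2)C against IMR-32 they were -0.56 for PSMB2, -0.72 for PSMB6, -0.54 for PSMC1, -0.60 for PSMD14, -0.64 for PSME2 and -0.55 for PSME4, with a highest adjusted p of 0.00485. For SK-N-BE(2)C against SH-SY5Y they were -0.71 for PSMB6, -0.72 for PSMD11, -0.54 for PSMD14, -0.99 for PSME1, -0.74 for PSME2 and -0.88 for PSME4, with a highest adjusted p of 0.00731. For IMR-32 against SH-SY5Y they were -0.57 for PSMB10 and -1.11 for PSME1, with a highest adjusted p of 0.00893.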

How the results depend on the processing

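Counts of members past both limits moved most with the limit on size. With an adjusted p under 0.05 alone they were 27 at 24 h and 40 from 24 h to 7 d in SK-N-BE(2)C, then 8, 27 and 13 for IMR-32 and 22, 34 and 30 for SH-SY5Y (24 h, 5 d, and 5 d against 24 h). Responses that differed were then 1 at 24 h for SK-N-BE(2)C against IMR-32, and 22, 20 and 4 at the longer time for the pairs in the order of the report. Control levels differed for 34 in SK-N-BE(2)C against IMR-32 and 26 in IMR-32 against SH-SY5Y, PSMD5 included. The share of all genes without the limit on size was not computed for these differences, so their counts cannot be set against a background. With library size alone, the SH-SY5Y counts were 6 at 5 d and 0 from 24 h to 5 d. Of the 6, 5 were among the 10 that fell with TMM, and the other had not passed both limits there. With that scaling, control levels of IMR-32 and SH-SY5Y differed for 10 members. Also, 1 response differed at 24 h between SK-N-BE(2)C and IMR-32, as it did with RLE factors (1). With all 45 libraries in 1 fit, 5 members passed from 24 h to 5 d in IMR-32, 4 of them lower and PSMD5, at 0 to 5 counts a library, higher. DESeq2, the absence of a filter on low counts and the sum of close SK-N-BE(2)C libraries changed no count by over 1.5 times. Leaving out 1 library at a time gave 4 to 8 calls at 24 h, 26 to 30 at 7 d and 11 to 19 between them in SK-N-BE(2)C, then 1 to 4, 4 to 10 and 2 to 5 for IMR-32 and 2, 9 to 16 and 0 to 2 for SH-SY5Y. Without replicate 5 of IMR-32 or its 24 h replicate 2, both chosen for this after seeing the data, responses of SK-N-BE(2)C and IMR-32 differed for 1 member at 24 h and for 6 to 12 at the longer time. No median log2 fold change moved by over the spread between replicates, and no named value changed direction. Of the calls at the longer time against control, 26 of 29, 3 of 8 and 5 of 10 by line passed both limits under each other scaling, filter, DESeq2, the block and each library left out. The cause of these shifts was not tested. With the replicate number as a block, the IMR-32 24 h count was 3 in place of 4, PSMD1 at -0.50 being lost by the limit on size, 7 responses in place of 6 differed at the longer time in each pair with SK-N-BE(2)C, and no other call of a named member was lost. For control levels between lines no such fit was made. Members at low counts set the limit of detection here, since PSMB11 had 0 to 2 counts a library.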
